A study of Macaca fascicularis and Mus musculus with 492 samples.

Results

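The naive pluripotency factors KLF4, KLF5, KLF17, TFCP2L1, ESRRB, SOX15, ZFP42 and TBX3 were followed through single cells of cynomolgus monkey and mouse. The 8 genes were chosen by name, and all 8 were found in both species, among 28797 genes used in the monkey table and 26219 in the mouse table. In the monkey table KLF4 stands under the name LOC101926136 (gene ID 101926136), and the other 7 stand under their symbols. The mouse genes, by GENCODE annotation of the build mm10, are protein-coding and lie on chromosome 4 from 55527143 to 55532466 (Klf4), 14 from 99298691 to 99315036 (Klf5), 4 from 117757836 to 117765648 (Klf17), 1 from 118627945 to 118685168 (Tfcp2l1), 12 from 86361117 to 86521628 (Esrrb), 11 from 69655314 to 69656727 (Sox15), 8 from 43295063 to 43306980 (Zfp42) and 5 from 119670669 to 119684724 (Tbx3). Values are RPM (reads scaled to a common total in every cell) from SC3-seq, which reads the 3′ ends of messages, so they are not scaled by gene length.

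Naive pluripotency is the state of the epiblast before implantation, and in mouse it is held in culture by inhibitors of MEK and GSK3 together with the cytokine LIF (2i/LIF). In mouse cells KLF4 and TFCP2L1 act downstream of LIF and STAT3, ESRRB responds to the GSK3 and TCF7L1 branch of WNT signalling, and the factors lose expression as cells pass to the primed state that follows implantation. KLF17 is known as a marker of the human, rather than the mouse, naive state, and TBX3, KLF5, TFCP2L1 and ESRRB are also known outside the epiblast, in trophectoderm or endoderm.

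The monkey cells were 390 from embryos of E06 (43 cells), E07 (35), E08 (95), E09 (20), E13 (46), E14 (62), E16 (36) and E17 (53), and 31 from embryonic stem cells (ESCs). The ESCs came from 2 lines: CMK6 without feeders (9 cells) or on mouse embryonic feeders (14), and CMK9 on feeders (8). The feeder medium held 20% KSR (a serum replacement), mouse LIF at 1000 U/ml and bFGF at 4 ng/ml, and the feeder-free medium was one used for human stem cells. Mouse cells were of strain C57BL/6: 25 from embryos of E5.5, 24 from E6.5, 10 ESCs of the line BVSC R8 in feeder-free 2i/LIF, and 12 epiblast-like cells (EpiLCs) induced from those ESCs for 2 days with activin A at 20 ng/ml, bFGF at 12 ng/ml and 1% KSR. Embryos after implantation were dissected before dissociation: the monkey fragment was cut out around the epiblast, amnion, hypoblast and yolk sac, the mouse extraembryonic ectoderm was removed, and of the E6.5 mouse epiblast only the proximal part was taken. The labelled mouse groups hold no blastocyst cells, so 2i/LIF ESCs stand as the mouse naive group. A further 37 mouse columns with no matching sample were not used, and whether they hold such cells was not examined.

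Classes of embryo cells were rebuilt by clustering without the 8 factors, named "-like" from fixed markers, and may differ from the authors' own. Epiblast-like clusters had 7 of 8 epiblast markers raised, the hypoblast-like cluster 8 of 10 of its markers, and the trophectoderm-like clusters 6 of 9 (E06 and part of E07), 9 of 9 (E07 to E09) and 7 of 9 (E14 and E16). The 31 E06 cells outside the trophectoderm-like cluster, where inner cell mass would be looked for, are in a cluster that stayed unnamed: 4 of 8 epiblast markers were raised (POU5F1, NANOG, DPPA4, L1TD1) and its leading genes were DPRX, C9H10orf99, SPIC and NLRP7. They are called the E06 non-trophectoderm cells. Depth was 166742 to 4491539 reads per monkey cell (median 1879342) and 1004103 to 4158784 per mouse cell (median 2642943). No embryo is named in the labels, so a class on a day, or an ESC culture, is the unit of each test, cells are not counted as replicates, and p-values measure only the spread between these units.

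**Figure D1:**
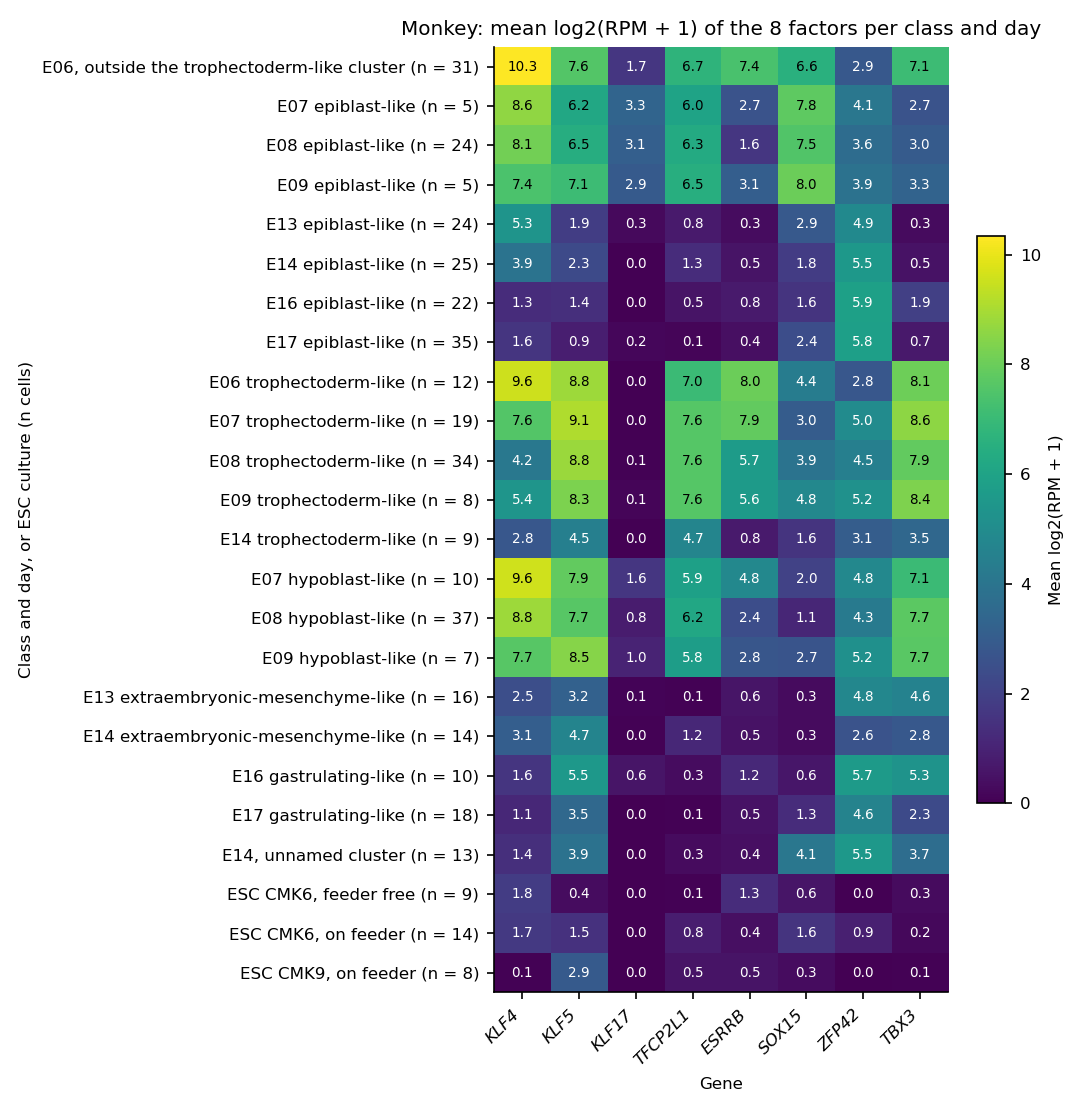
Mean log2(RPM + 1) of each factor (columns) in every monkey class and day or ESC culture with at least 5 cells (rows, with the number of cells), printed in each field and coloured from dark (0) to bright. KLF17 and SOX15 are highest in epiblast-like cells of E07 to E09, TBX3, KLF5 and ESRRB in trophectoderm-like cells of E06 or E07, and the ESC cultures are dark throughout, with no mean above 2.94.

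The E06 non-trophectoderm cells held most of the factors at once. A cell had a median of 7 of the 8 factors at 10 RPM or more (lowest 6, highest 8). This was largely shared by the 12 trophectoderm-like cells of E06, with a median of 6 (lowest 5, highest 7). The median was also 6 in trophectoderm-like cells of E07, E08 and E09, and 6, 5 and 5 in hypoblast-like cells of those days. In the E06 non-trophectoderm cells KLF4, a Krüppel-like zinc-finger factor also used in reprogramming, was the most abundant. Its lowest, median and highest values over the 31 cells were 730.3, 1275 and 3454 RPM. KLF5, of the same family, lay at 22.1, 221 and 522 RPM, and ESRRB, an orphan nuclear receptor, at 83.8, 163 and 398 RPM. Each of KLF4, KLF5, TFCP2L1, ESRRB, SOX15 and TBX3 stood at 10 RPM or more in all 31 cells (100%, 95% Clopper-Pearson interval 88.8 to 100%, which covers counting error only). ZFP42 and KLF17 were uneven. ZFP42, the zinc-finger gene better known as REX1, reached 10 RPM in 17 of the 31 cells and was at 0 in 6. KLF17 reached 10 RPM in 7 cells and was at 0 in 13, with a median of 0.959 and a highest value of 36.3 RPM.

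The E06 cells came under 2 codes in the sample titles, whose meaning the labels do not give, and values under each are given side by side. In the 19 cells coded MS03 the median was 1275 RPM for KLF4, 144 for SOX15, 178 for KLF5 and 121 for TBX3. In the 12 cells coded MS68 it was 1229 RPM for KLF4, 69.5 for SOX15, 314 for KLF5 and 245 for TBX3. KLF4 was near the same level under both, while SOX15 was lower and KLF5 and TBX3 higher under MS68; their ranges overlapped. The ratio of the medians was widest for ZFP42, with a median of 3.54 RPM (0 to 31.7) under MS03 and 16.1 RPM (0 to 51.6) under MS68.

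Against the 12 trophectoderm-like cells of the same day, the E06 non-trophectoderm cells differed chiefly in SOX15 and KLF17. This is 1 unit against 1, so no test is given, and a difference of at least 2 on the scale of mean log2(RPM + 1) is called past the fold, which 1.01% of 9693 genes passed upward and 3.32% downward. SOX15, an HMG-box factor, had a mean of 6.56 against 4.36, a difference of 2.2, which was 1.78 with a pseudocount of 10. KLF17 lay at 1.66 against 0 (past the fold, at 2.72, when means were taken before the log), with all 12 trophectoderm-like cells at 0 RPM. The other 6 factors differed by less: KLF4 by 0.77, ZFP42 by 0.07, TFCP2L1 by -0.30, ESRRB by -0.64, TBX3 by -0.98 and KLF5 by -1.28. On E06, then, 7 of the 8 factors were read in both groups of cells, and KLF17 in the non-trophectoderm cells only. By the rule of 3, 0 of 12 trophectoderm-like cells allows a share of up to about 25%. That rule takes 3 over the number of cells as an approximate upper limit, for counting error only.

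Set beside the mean of the epiblast-like days E07 to E09, the same E06 cells were past the fold in 3 factors. The background was 2.13% of 9944 genes upward and 4.63% downward. ESRRB was higher in the E06 cells by 4.90 (7.37 against 2.47) and TBX3, a T-box repressor, by 4.10 (7.08 against 2.98). KLF4 was higher by 2.29 (10.34 against 8.05), which fell to 1.82 when means were taken before the log. KLF17 differed by -1.48, SOX15 by -1.22, ZFP42 by -1.01, KLF5 by 0.99 and TFCP2L1 by 0.46. For ESRRB the cells did not overlap: the lowest E06 cell had 83.8 RPM and the highest epiblast-like cell of E07, E08 or E09 had 34.7, 19.6 and 39.5 RPM.

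Epiblast-like cells of E07 to E09 had high SOX15, KLF4, KLF5 and TFCP2L1, and low but detectable KLF17. SOX15 was at 96.1, 225 and 328 RPM (lowest, median, highest of 5 cells) on E07, at 54.1, 196 and 452 RPM (24 cells) on E08 and at 112, 275 and 594 RPM (5 cells) on E09. TFCP2L1, a CP2-family factor, had medians of 114, 70.9 and 93.4 RPM over the same days. KLF17 had medians of 9.72, 9.57 and 4.87 RPM and a highest cell of 63.8 RPM on E08. ZFP42 had medians of 16.4, 14.1 and 12.3 RPM. For SOX15 and ZFP42 the ranges of the 3 days overlapped throughout. ESRRB was uneven, at 10 RPM or more in 1 of 5, 6 of 24 and 3 of 5 cells.

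Trophectoderm-like cells were compared with epiblast-like cells of E07, E08 and E09 in a fit across 10101 genes with day as a block (3 days each, limma, adjusted over all genes). TBX3, ESRRB, KLF5, TFCP2L1 and ZFP42 were higher in trophectoderm-like cells, and SOX15, KLF17 and KLF4 were lower, where 13.6% of all genes tested were higher and 16.9% lower. The classes come from clustering, so the other genes of this fit took part in making the groups; the 8 factors did not.

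TBX3 gave the widest difference. Its lowest, median and highest values were 140, 412 and 678 RPM in 19 trophectoderm-like cells of E07, 31.6, 233 and 522 RPM in 34 of E08 and 65.5, 484 and 746 RPM in 8 of E09. In epiblast-like cells its medians were 4.83, 4.44 and 10.3 RPM on those days, and the classes overlapped only on E08, through 1 epiblast-like cell at 193 RPM and 1 trophectoderm-like cell at 31.6 RPM. The means over days were 8.27 ± 0.37 against 2.98 ± 0.31 (SD, n = 3 days), a difference of 5.29 ± 0.25 (SE; adjusted p = 8.635e-07).

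ESRRB, whose mouse counterpart is a standard naive ESC marker, followed trophectoderm rather than epiblast. Its median was 280 RPM in E07 trophectoderm-like cells, 82.7 RPM on E08 and 245 RPM on E09, against 3.46, 0.944 and 14.6 RPM in epiblast-like cells. The difference was 3.92 ± 0.47 (adjusted p = 0.0001626). On E08 its range within trophectoderm-like cells ran from 0 to 337 RPM, with 29 of 34 cells at 10 RPM or more. On E09 5 of the 8 cells were at 10 RPM or more and the lowest held 0.595 RPM.

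KLF5 was higher by 2.16 ± 0.28 (adjusted p = 0.0002631), with medians of 603, 635 and 331 RPM against 86.1, 112 and 145 RPM. TFCP2L1 was higher by 1.34 ± 0.18 (adjusted p = 0.0003471), with medians of 210, 212 and 213 RPM on E07, E08 and E09. The TFCP2L1 means of the 3 trophectoderm-like days were 7.61, 7.61 and 7.63, with an SD of 0.01, the smallest of the 8 factors. ZFP42 was higher by 1.03 ± 0.27 (adjusted p = 0.01615), and this call was lost without E08 (adjusted p = 0.09659) or without E09 (adjusted p = 0.1186), and with units of at least 10 cells (adjusted p = 0.3105).

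SOX15 and KLF17 went the other way. SOX15 medians in trophectoderm-like cells were 10.0, 14.3 and 46.6 RPM, and the difference was -3.85 ± 0.38 (adjusted p = 4.648e-05). KLF17 stayed under 1 RPM in all 61 trophectoderm-like cells of E07 to E09 and was at 0 in 18 of 19, 31 of 34 and 6 of 8 of them. None of the 34 E08 cells reached 10 RPM, which by the rule of 3 allows a share of up to about 8.82% of cells. The KLF17 difference was -3.06 ± 0.32 (adjusted p = 7.236e-05); it passed the filter on low values only through the epiblast-like days, so it had to differ.

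KLF4 was lower by 2.35 ± 0.46 on average (adjusted p = 0.003333), but its day means overlapped: 7.56, 4.16 and 5.4 in trophectoderm-like against 8.62, 8.14 and 7.4 in epiblast-like cells. The call was lost with no filter on low values (adjusted p = 0.05763), with means taken before the log (0.1023) and in edgeR on recovered reads (0.2374). Its course within trophectoderm-like cells was steep. The median was 879 RPM on E06, 104 on E07, 18.4 on E08 and 34.1 on E09. On E07 the cells fell into 2 sets that did not overlap: 9 cells from the cluster shared with E06 had 731 to 1497 RPM (median 1146) and 10 from the cluster shared with E08 and E09 had 7.31 to 104 RPM (median 49.02). ESRRB in the same 2 sets had medians of 353 and 220 RPM, TBX3 430.4 and 398 RPM and KLF5 599 and 624.8 RPM, all with overlapping ranges.

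A slope over E06 to E09 in trophectoderm-like cells was also fitted (4 days, 8819 genes). No factor passed, where 0.272% of genes rose and 0.204% fell by that test. KLF4 had a slope of -1.59 per day (95% interval -2.34 to -0.85, adjusted p = 0.06584) and ESRRB -0.93 (95% interval -1.32 to -0.53, adjusted p = 0.05232). KLF17 was not tested. With E08 left out both slopes passed (adjusted p = 8.735e-06 for KLF4 and 0.0007742 for ESRRB), as they did without E09, and not without E06 (0.8189 and 0.3414) or E07 (0.08015 and 0.06621). The number of genes called was 42 with all 4 days and 1, 5, 320 and 799 without E06, E07, E08 and E09.

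The later trophectoderm-like cells of E14 had less of the factors. Over 9 cells the lowest, median and highest values were 0.528, 67.99 and 150.5 RPM for TFCP2L1, 1.58, 32.5 and 99.1 RPM for KLF5 and 0, 26.7 and 58.5 RPM for TBX3. ESRRB had at most 2.64 RPM. TFCP2L1, KLF5 and TBX3 were thus still read in these cells. ESRRB was not at 10 RPM in any of the 9 (an upper limit of about 33.3% of cells by the rule of 3).

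**Figure D2:**
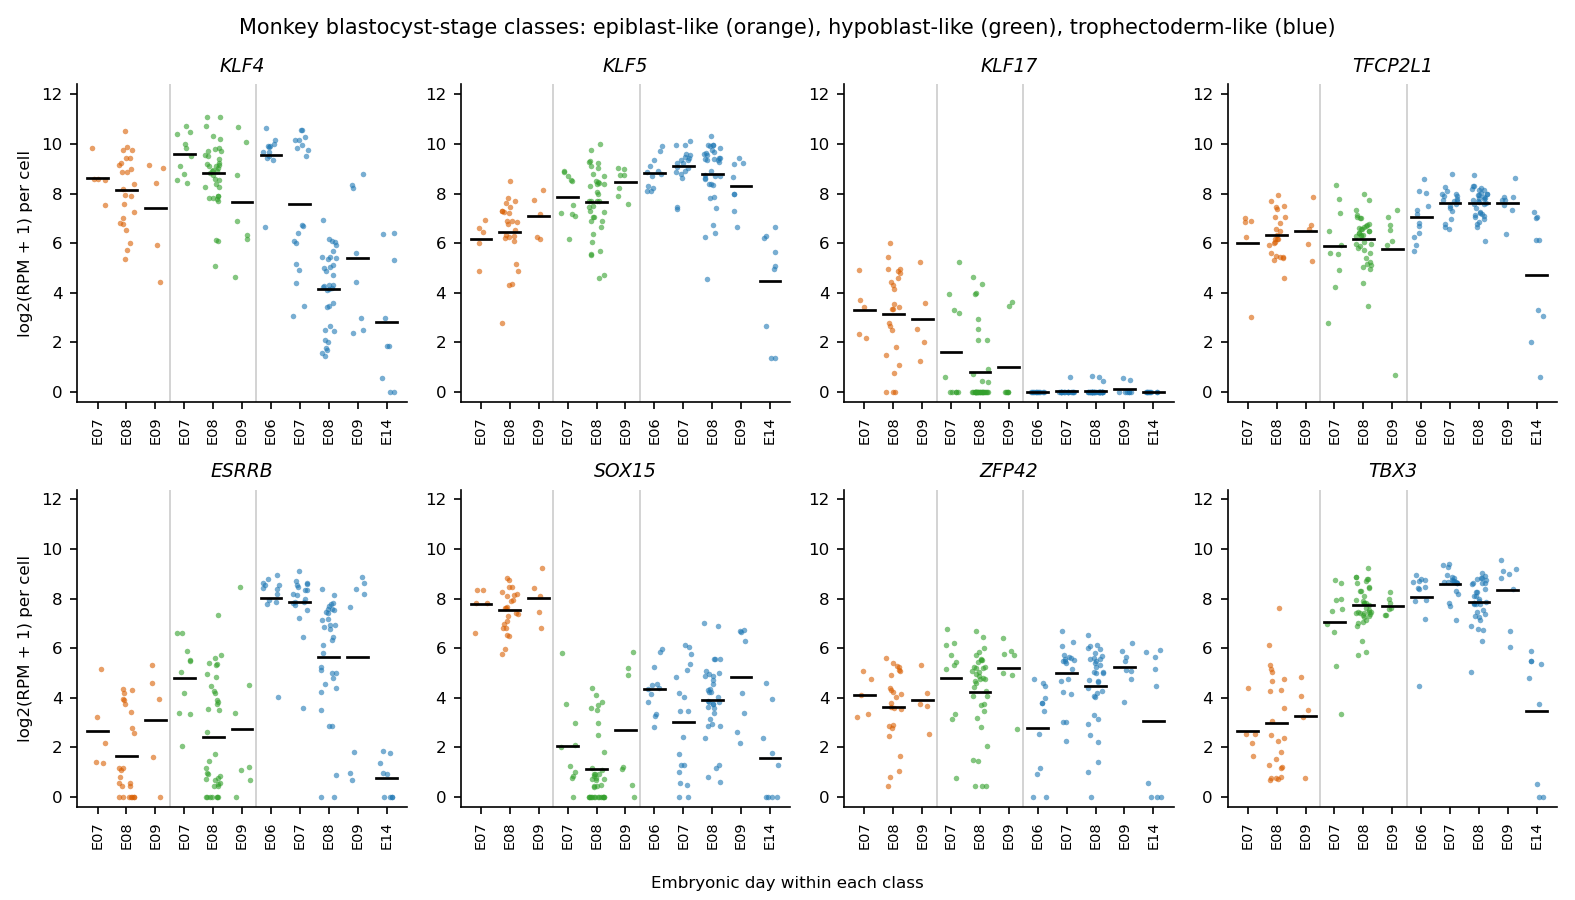
log2(RPM + 1) of each factor (panels) per cell in epiblast-like (orange), hypoblast-like (green) and trophectoderm-like (blue) cells by embryonic day; each point is 1 cell and each bar the mean of the day. SOX15 points lie highest in orange, TBX3 in green and blue, ESRRB in blue from E06 to E09, and KLF4 on E07 in blue splits into a high and a low set.

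In hypoblast-like cells, the precursors of yolk sac endoderm, the set differed again. In the same fit TBX3, KLF5 and ZFP42 were higher than in epiblast-like cells and SOX15 and KLF17 lower, where 15.3% of genes were higher and 18.1% lower. TBX3 had medians of 186, 197 and 197 RPM on E07 (10 cells), E08 (37) and E09 (7), a difference of 4.52 ± 0.25 (adjusted p = 1.424e-06). KLF5 had medians of 274, 209 and 424 RPM, a difference of 1.42 ± 0.28 (adjusted p = 0.003286). SOX15 medians were 2.19, 0.586 and 1.29 RPM, and the difference of -5.83 ± 0.38 (adjusted p = 3.349e-06) was the widest downward of the 8. KLF17 was at 0 in 25 of 37 cells on E08, with a mean over days of 1.14 against 3.13. It passed the filter on low values only through the epiblast-like days, so it had to differ here too. Its difference was -1.99 ± 0.32 (adjusted p = 0.001008), and the call was lost in edgeR (0.05588).

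KLF4 was high in hypoblast-like cells but fell from day to day, with medians of 817, 496 and 119 RPM on E07, E08 and E09. Its difference from epiblast-like cells was 0.63 (95% interval -0.39 to 1.66, adjusted p = 0.3262). TFCP2L1 had medians of 53.8, 80.3 and 92.5 RPM and differed by -0.33 (95% interval -0.73 to 0.07, adjusted p = 0.1934). ESRRB differed by 0.86 (95% interval -0.18 to 1.91, adjusted p = 0.1888) and was called with means taken before the log (1.70, adjusted p = 0.0008224) and in edgeR (1.76, adjusted p = 0.002923); its median went 37.4, 1.75 and 1.29 RPM from E07 to E09. The higher ZFP42 (0.88 ± 0.27, adjusted p = 0.03052) was lost without any 1 of the 3 days, with adjusted p from 0.06972 to 0.2155. It was also lost with units of at least 10 cells (0.4501), with no block for the day (0.07687) and with only the main title code of each day (0.06266).

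Other naive-associated genes, a list of 20 with 13 tested, set the frame for these classes. In trophectoderm-like against epiblast-like cells 9 of the 13 were lower and 1 higher (median difference -3.11, -0.10 over all genes), led by NANOG (-6.96), DPPA5 (-6.77), PRDM14 (-5.71) and FGF4 (-5.48). NANOG and PRDM14 are among the epiblast markers that name the class. The 1 higher was TET2 (4.79), an enzyme that oxidises methylated DNA. In hypoblast-like cells 9 of 13 were lower and 2 higher (median -4.12, -0.11 over all genes), TET2 (3.80) and the adhesion gene PECAM1 (3.73), and the lower ones were again led by NANOG (-7.51), DPPA5 (-6.21), PRDM14 (-5.91) and FGF4 (-5.42). Primed-associated genes, a list of 15 with 8 tested, were also mostly lower in both classes. In trophectoderm-like cells 5 of the 8 were lower and 1 higher (median -1.72). In hypoblast-like cells 5 were lower and 2 higher (median -1.65). Lower values than in epiblast-like cells were thus not particular to the naive list. The list genes took part in the clustering, so these counts describe the classes and test nothing.

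The nearest family members of the 8 factors were divided. Of 24 listed and 19 tested, 7 were higher and 6 lower in trophectoderm-like cells, led by SOX2 (-6.45), GRHL1 (4.54), GRHL2 (3.61) and ESRRG (2.70). In hypoblast-like cells 5 were higher and 5 lower, led by SOX17 (7.25), SOX2 (-6.03), KLF6 (2.97) and KLF3 (2.64). SOX2 is among the epiblast markers and SOX17 among the hypoblast markers that name the classes, so their differences are no separate result. Of the LIF pathway (9 genes, 8 tested), SOCS3 (1.90) was higher in trophectoderm-like cells and PIM1 (-2.39), IL6R (-2.13), IL6ST (-1.27) and STAT3 (-0.84) were lower. In hypoblast-like cells 3 were higher and 1 lower: LIFR (4.89) and IL6R (4.85), receptor chains for LIF and IL6, IL6ST (2.68), their shared signalling chain, and PIM1 (-1.58). The WNT and GSK3 branch (8 genes, 7 tested) had TLE3 (1.28) and CTNNB1 (0.54) higher and AXIN2 (-2.40), a WNT target, and TCF7L1 (-0.88) lower in trophectoderm-like cells. In hypoblast-like cells CTNNB1 (0.64) was higher and TCF7L1 (-2.30) and AXIN2 (-0.93) were lower. With so few genes in each list, nothing particular to these lists is read from the counts.

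After implantation the factors parted. Late epiblast-like days (E13, E14, E16 and E17) were compared with early ones (E07 to E09), 4 days against 3, over 9897 genes, of which 13.3% rose and 24.2% fell; the median of all genes moved by -0.26 on this scale and by 0.0011 after quantile normalization, where 52.4% of the called genes rose against 35.6% here. KLF4, KLF5, KLF17, TFCP2L1, SOX15 and TBX3 fell, ZFP42 rose, and ESRRB did not pass the filter on low values. KLF17, TFCP2L1 and TBX3 passed that filter only through the early days, so they had to differ.

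SOX15 fell by 5.59 ± 0.37 (adjusted p = 7.933e-07), from day means of 7.79, 7.52 and 8.01 to 2.90, 1.83, 1.56 and 2.45. It was not gone from all cells: it reached 10 RPM in 12 of 24, 7 of 25, 6 of 22 and 14 of 35 cells of the late days, with highest values of 128, 40.1, 131 and 69.3 RPM. TFCP2L1 fell by 5.59 ± 0.39 (adjusted p = 1.086e-06) and had a median of 0 RPM on each of the 4 late days. KLF5 fell by 4.96 ± 0.43 (adjusted p = 5.963e-06), with late medians of 0.94, 0.995, 1.17 and 0 RPM and single cells up to 342 RPM on E14.

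KLF4 fell in steps rather than at once. The difference was -5.01 ± 0.79 (adjusted p = 0.0004266). Its lowest, median and highest values were 1.39, 43.9 and 293 RPM on E13, 0, 18.7 and 363 RPM on E14, 0, 0.699 and 24.2 RPM on E16 and 0, 1.02 and 121 RPM on E17. Its day means were 5.34, 3.94, 1.29 and 1.59, so E13 lay between the early days and E16, and the spread between late days (SD 1.94) was wider than between early days (SD 0.62). KLF17 fell by 3.01 ± 0.30 (adjusted p = 1.568e-05); all 25 cells of E14 were at 0, and 1 of 35 cells of E17 reached 10 RPM.

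TBX3 fell by 2.12 ± 0.42 (adjusted p = 0.002018), a call lost with means taken before the log (0.0926) and in edgeR (0.6436). On E16 it reached 10 RPM in 7 of 22 cells and 190 RPM in the highest, while on E13 no cell reached 10 RPM. Summed levels of the 8 extraembryonic mesenchyme markers ran to 14291 RPM and of the 9 gastrulating markers to 4657 RPM in E16 epiblast-like cells, against 872 and 47.6 RPM on E13, and their part in the TBX3 values was not tested. ESRRB had day means of 2.66, 1.65 and 3.10 early and 0.33, 0.53, 0.77 and 0.44 late, which do not overlap.

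ZFP42 was the exception. Its median was 16.4, 14.1 and 12.3 RPM on E07 to E09 and 39.8, 48.9, 67.6 and 81 RPM on E13, E14, E16 and E17. The rise was 1.67 ± 0.33 (adjusted p = 0.001829), and all 4 late day means (4.92, 5.53, 5.88 and 5.84) lay above the 3 early ones (4.10, 3.64 and 3.89). ZFP42 is known in mouse as a marker that fades with priming. Under the 1 title code with both early (2) and late (25) epiblast-like cells, MS08, it rose by 2.31, while SOX15 fell by 7.16, KLF4 by 6.38, TFCP2L1 by 6.01, KLF5 by 4.10, KLF17 by 3.54 and TBX3 by 0.87, with no test.

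A cell had a median of 5, 6 and 7 of the 8 factors at 10 RPM or more on E07, E08 and E09 and of 3, 2, 2 and 2 on the late days. When each cell was thinned to 160000 reads and a factor counted at 2 reads or more, the medians were 5, 6 and 7 and then 3, 2, 1.5 and 2. At equal depth, too, every early day lay above every late day.

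Other genes of the naive list moved with the 6 factors: of 12 tested, 11 fell and none rose, led by TFAP2C (-6.12), DNMT3L (-5.90), DPPA3 (-5.64) and DPPA2 (-4.36), with a median of -2.95. Of 15 primed-associated genes, 11 were tested and 10 rose, led by SFRP1 (6.73) and SFRP2 (6.36), both secreted WNT antagonists, CD24 (6.07) and SOX11 (5.04). Among the family members 19 were tested: SOX11 (5.04), GRHL2 (1.48) and KLF12 (1.37) rose, and KLF9 (-3.26), KLF11 (-3.20), KLF10 (-2.99) and KLF13 (-2.04) fell. Of 7 LIF-pathway genes tested IL6ST (-2.86) and IL6R (-1.69) fell and LIFR (2.10) rose. Of 7 genes of the WNT branch AXIN2 (-2.47) and TLE3 (-2.03) fell and TCF7L1 (1.13), the repressor of naive genes in mouse ESCs, rose. The shares called in the family, LIF and WNT lists lie near the 13.3% and 24.2% of all genes, so these counts show nothing particular to them. These lists were drawn up with earlier results of these data known, so the counts are no independent support. Summed levels of the 5 amnion markers ran from 0 to 91.6 RPM in early and from 0 to 427 RPM in late epiblast-like cells, and their part in these differences was not tested.

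**Figure D3:**
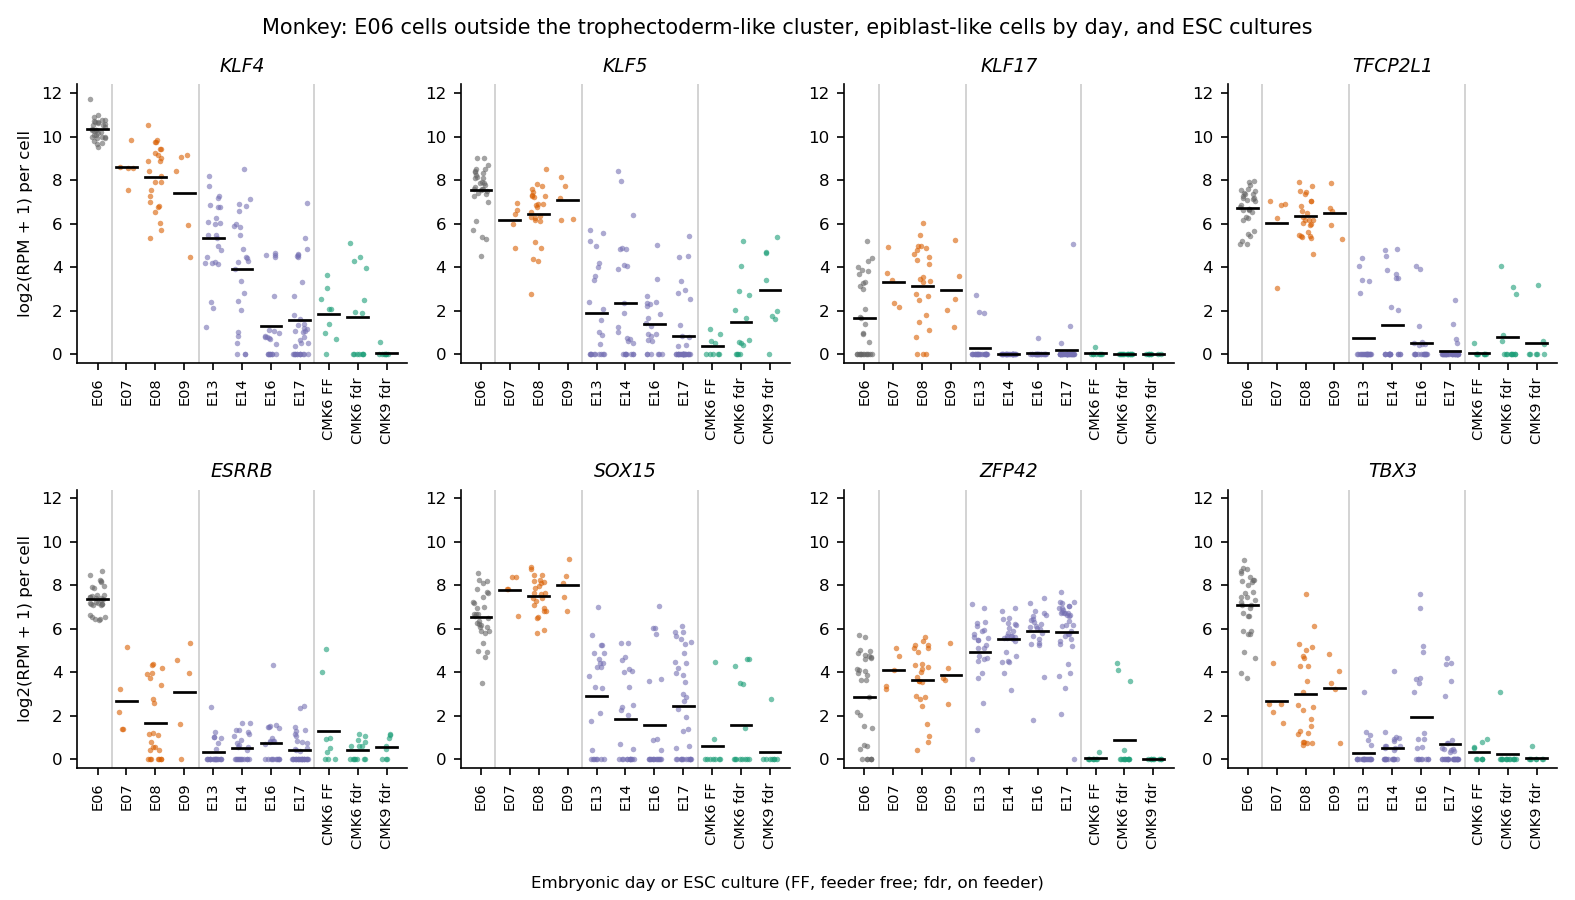
log2(RPM + 1) of each factor (panels) per cell in E06 cells outside the trophectoderm-like cluster (grey), epiblast-like cells of E07 to E09 (orange) and E13 to E17 (purple), and the 3 ESC cultures (green); each point is 1 cell and each bar a mean. All panels but ZFP42 drop between E09 and E13, ZFP42 climbs, and the means of the ESC cultures lie under 3 in every panel.

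Some factors were also read outside the epiblast-like class after implantation. In gastrulating-like cells of E16 (10 cells) TBX3 had a median of 96.9 RPM, KLF5 58.5 RPM and ZFP42 38.8 RPM, and on E17 (18 cells) 0, 16.4 and 52.6 RPM. The highest KLF4 cells there had 27.9 and 125 RPM. In extraembryonic-mesenchyme-like cells TBX3 had medians of 33.3 RPM on E13 (16 cells) and 2.26 RPM on E14 (14 cells), and KLF5 16.6 and 39.2 RPM. TFCP2L1, SOX15 and KLF17 had medians under 1 RPM in all 4 of these groups. In 13 unnamed E14 cells led by SPP1 and T, SOX15 had a median of 21.2 RPM, ZFP42 46.3 RPM and KLF5 38.7 RPM. The ZFP42 medians of these 13 cells and of the gastrulating-like cells lay under those of epiblast-like cells of the same days.

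The monkey ESC cultures had very little of any factor. A cell had a median of 0 (CMK6 feeder free), 1 (CMK6 on feeder) and 0 (CMK9) of the 8 at 10 RPM or more. The culture means of log2(RPM + 1) were, for CMK6 feeder free, CMK6 on feeder and CMK9 in turn, 1.82, 1.72 and 0.07 for KLF4, 0.36, 1.48 and 2.94 for KLF5 and 0.60, 1.56 and 0.35 for SOX15. ZFP42 was at 0 in 8 of 9, 10 of 14 and 8 of 8 cells. KLF17 was at 0 in 8 of 9, 14 of 14 and 8 of 8. KLF5 was the only factor at a mean above 2 in any culture, in CMK9, with a median of 6.36 RPM and a highest cell of 40.6 RPM.

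Against epiblast-like cells of E07 to E09 all 7 factors tested were lower in the ESC cultures (3 cultures against 3 days, 10142 genes, of which 16.2% were higher and 13.7% lower). The differences were -6.94 ± 0.42 for SOX15 (adjusted p = 1.743e-06), -6.85 ± 0.52 for KLF4 (8.66e-06), -5.81 ± 0.42 for TFCP2L1 (6.263e-06), -4.99 ± 0.61 for KLF5 (0.0001803), -3.57 ± 0.42 for ZFP42 (0.0001412), -3.12 ± 0.34 for KLF17 (0.0001023) and -2.78 ± 0.36 for TBX3 (0.0002609). In edgeR the ZFP42 call was lost (adjusted p = 0.06199). All but KLF5 passed the filter on low values only through the early epiblast-like days, so they had to differ, and ESRRB did not pass it. Of the 3 cultures 2 are the same line.

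Against the late epiblast-like days (9880 genes, of which 7.14% were higher and 1.52% lower in culture) only ZFP42 passed the filter. Its culture means were 0.04, 0.90 and 0.00 against 4.92, 5.53, 5.88 and 5.84, a difference of -5.23 ± 0.41 (adjusted p = 0.0001146), which the filter required as well. The highest of 31 ESCs had 20.5 RPM. Under the title code MS11, which holds 9 feeder-free CMK6 cells and 8 late epiblast-like cells, the ZFP42 means were 0.04 and 6.36. The other factors had overlapping ranges in the 2 sets: KLF5 at 1.59 ± 1.29 (SD, n = 3 cultures) against 1.62 ± 0.64 (n = 4 days), TFCP2L1 at 0.47 ± 0.38 against 0.69 ± 0.49, ESRRB at 0.75 ± 0.49 against 0.52 ± 0.19, TBX3 at 0.20 ± 0.12 against 0.86 ± 0.74 KLF4 at 1.21 ± 0.98 against 3.04 ± 1.94, and KLF17 at 0.01 ± 0.02 against 0.13 ± 0.13. SOX15 lay at 0.84 ± 0.64 against 2.19 ± 0.60, with its highest culture and its lowest day both at 1.56. These had no test. The 2 ESC comparisons share the cultures.

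Against the early days, in the other gene lists, 11 of 12 other naive genes were lower, led by DPPA5 (-10.96), DPPA3 (-9.36), DNMT3L (-8.74) and DPPA2 (-5.63), and 11 of 12 primed-associated genes higher, led by SFRP1 (8.17), SFRP2 (6.63), CD24 (5.40) and SOX11 (5.09). Against the late days 3 naive genes were lower, DPPA5 (-8.50), DPPA3 (-3.72) and FGF4 (-2.89), of 10 tested, and 1 primed gene, NES (1.5), was higher of 12. Of the family members KLF10 (3.71) was higher in culture, of the WNT branch AXIN2 (-2.39) was lower, and of 6 LIF-pathway genes tested 0 passed in limma. Against the early days IL6ST (-2.45) and PIM1 (-1.43) of 8 LIF-pathway genes were lower, as were AXIN2 (-4.86) and TLE3 (-1.74) of 7 genes of the WNT branch, where 13.7% of all genes were lower, and nothing particular to these lists is read from that. Feeder-fibroblast markers (7 genes) summed to 268 to 726 RPM in feeder-free CMK6, 89.5 to 1557 RPM in CMK6 on feeder, 146 to 1446 RPM in CMK9, 0 to 391 RPM in early and 4.34 to 13310 RPM in late epiblast-like cells, and their part in these differences was not tested. In the culture without feeders no factor had a mean above 1.82.

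In mouse 2i/LIF ESCs 7 of the 8 factors were on. The lowest, median and highest values over the 10 cells were 194, 372 and 624 RPM for Esrrb, 37.0, 276 and 658 RPM for Tfcp2l1, 10.2, 250.2 and 538 RPM for Klf4, 41.1, 122 and 163 RPM for Zfp42 and 13.4, 92.2 and 215 RPM for Klf5. Sox15 lay at 28.2, 43.2 and 99.3 RPM. Each of these 6 was at 10 RPM or more in all 10 cells. Tbx3 was uneven, from 0.407 to 192 RPM with a median of 22.6, and at 10 RPM or more in 8 of the 10. Klf17 was at 0 in 9 of 10 cells; the pooled cells had 1 Klf17 read, 0.0388 RPM (exact Poisson 95% interval 0.0010 to 0.216, counting error only).

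EpiLCs, 2 days later, had much less of these 7 factors. Each mouse group is 1 sample, so no test is given. In 2i/LIF ESCs against EpiLCs 4.33% of 9575 genes were higher by at least 2 (log2) and 5.57% lower. Klf4 was higher by 6.63 (7.36 against 0.73), Tfcp2l1 by 6.503 (7.80 against 1.298), Esrrb by 6.39 (8.51 against 2.12), Tbx3 by 4.33, Klf5 by 3.59, Sox15 by 3.14 and Zfp42 by 2.76. With a pseudocount of 10 the Sox15 and Tbx3 differences were 1.72 and 1.88. The EpiLCs were not uniform: Esrrb reached 184 RPM in the highest of 12 cells with a median of 0.746 RPM, and Tfcp2l1 45.2 RPM with a median of 0.426 RPM. Zfp42 and Klf5 had medians of 15.4 and 5.94 RPM.

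E5.5 epiblast-like cells (16) were as low. Against them 2i/LIF ESCs were higher by 8.19 in Esrrb (8.51 against 0.32), 7.21 in Tfcp2l1, 6.01 in Klf4, 4.62 in Klf5, 4.44 in Tbx3, 3.78 in Sox15 and 2.87 in Zfp42, where 4.93% of 9753 genes were higher by at least 2 and 7.38% lower. With a pseudocount of 10 the Tbx3 difference was under 2 here too. Zfp42 still had a median of 13.01 RPM (0.685 to 63.6) in the E5.5 epiblast-like cells. Klf17 reached 10 RPM in 1 of them (10.8 RPM) and in 1 EpiLC (12.2 RPM), and in no other mouse cell.

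Visceral-endoderm-like cells of E5.5 (9) held Tbx3, Tfcp2l1 and Klf5. Tbx3 had a median of 28.3 RPM (15.8 to 258) against 0 in epiblast-like cells, a difference of 5.14, Tfcp2l1 38.2 RPM (9.40 to 114) against 0, a difference of 4.80, and Klf5 16.3 RPM (7.71 to 58.1) against 3.25, a difference of 2.61 (1.14 with a pseudocount of 10), where 11.8% of 10101 genes were higher by at least 2 and 7.16% lower. Esrrb was at 0 in all 9 cells, and Sox15 in 8 of 9. Zfp42 had a median of 28.9 RPM and differed by 0.80. The signs for Tbx3, Klf5 and Sox15 (-1.74) were those of monkey hypoblast-like against epiblast-like cells. So were those of Zfp42, Klf4 (0.29) and Klf17 (-0.50), all differences of less than 2. Klf17 was near 0 in both mouse groups (0.05 against 0.55), and monkey KLF4 was not called. The stages differ too: the monkey cells were of E07 to E09, before implantation, and the mouse cells of E5.5, after it. The signs for Tfcp2l1 and Esrrb were opposite. TFCP2L1, past the fold here, differed by -0.33 there and was not called. Esrrb differed by -0.32 here and ESRRB by 0.86 there, not called in the main fit.

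At E6.5 Klf4 was high in 2 groups of mouse cells. It had a median of 205 RPM (73.1 to 321) in 5 visceral-endoderm-like cells and 147 RPM (50.6 to 266) in 9 cells of an unnamed cluster with 4 of 9 epiblast markers raised, against 2.64 RPM (0 to 30.3) in 10 cells of an unnamed cluster led by T and Mesp1. The 9 cells were led by immunoglobulin genes, Igkc and Ighm among them. The summed level of 5 immunoglobulin genes was 77.7 to 5044 RPM in the first group, 66.3 to 48955 in the second and 59.7 to 414 in the third, against at most 20.4 RPM in every other mouse cell. The part of that signal in the Klf4 level was not tested. The other factors were low in the 9 cells, with medians of 0 to 0.996 RPM.

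**Figure D4:**
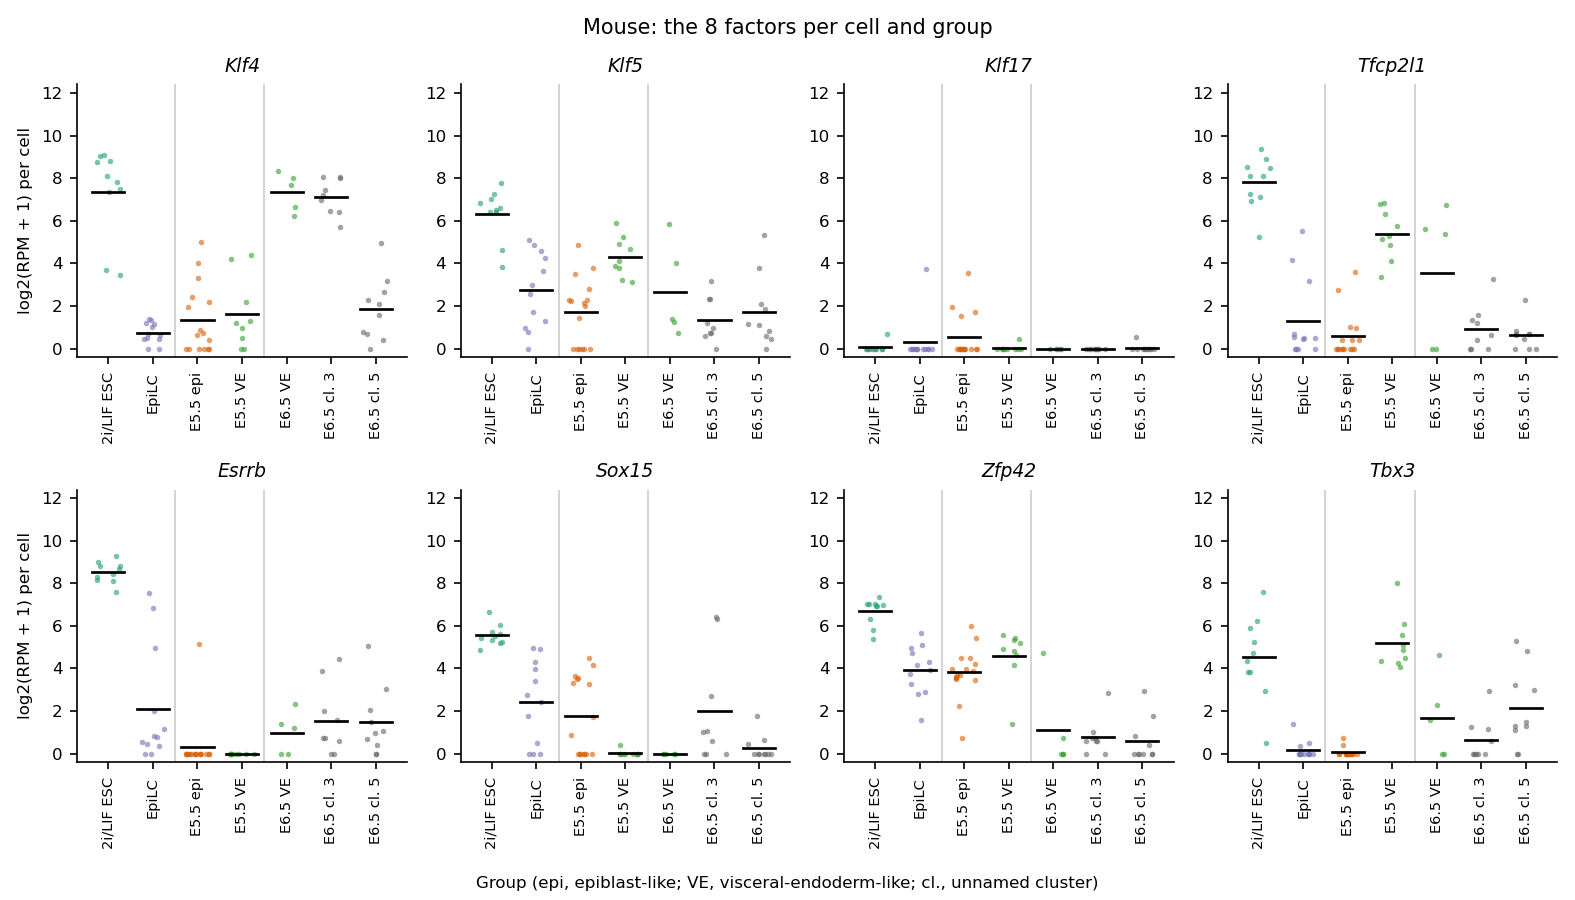
log2(RPM + 1) of each mouse factor (panels) per cell in 2i/LIF ESCs, EpiLCs, and embryo classes of E5.5 and E6.5; each point is 1 cell and each bar the mean of its group. All panels but Klf17 are high in 2i/LIF ESCs, Tfcp2l1 and Tbx3 are also high in E5.5 visceral-endoderm-like cells, and Klf4 in 2 of the E6.5 groups.

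The 2 tables were normalized separately, so the species were set side by side only by rank: the percentile of each factor, by group mean, among 14254 genes with the same name in both tables, with no test. In mouse 2i/LIF ESCs Esrrb stood at 98.1%, Tfcp2l1 at 96.4%, Klf4 at 94.9%, Zfp42 at 91.6%, Klf5 at 89.2%, Sox15 at 83.2%, Tbx3 at 74.1% and Klf17 at 27.2%. The monkey E06 non-trophectoderm cells had KLF4 at 99.4%, KLF5 at 94.9%, ESRRB at 93.9%, TBX3 at 92.3%, TFCP2L1 at 90.2% and SOX15 at 89.1%, all above 89%, with ZFP42 at 57.4% and KLF17 at 48.3%. Apart from ZFP42, every factor high in the mouse ESCs was also high in these cells. Most of this was shared by the E06 trophectoderm-like cells. They had KLF4 at 98.9%, KLF5 at 97.9%, TBX3 at 96.3%, ESRRB at 96.1%, TFCP2L1 at 91.8% and ZFP42 at 56.6%. Lower there were SOX15, at 69.7%, and KLF17, at 10.1%.

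E08 epiblast-like cells, with 24 cells the largest early set of that class, had KLF4 at 96.6%, SOX15 at 94.4%, KLF5 at 88% and TFCP2L1 at 87.2%. They differed from the mouse ESCs most in ESRRB, at 46.05% against 98.1%, in KLF17, at 58.5% against 27.2%, and in ZFP42, at 62.6% against 91.6%. TBX3 was at 57.02% (64.6% when ranked by mean RPM). E08 trophectoderm-like cells had KLF5 at 97.9%, TBX3 at 95.9%, TFCP2L1 at 95.1% and ESRRB at 82.1% (88.8% by mean RPM), with SOX15 at 65.7% and KLF17 at 22.1%. For ESRRB and TFCP2L1 the trophectoderm-like cells were nearer in rank to the mouse ESCs than the epiblast-like cells were, on E07, E08 and E09 and by either ranking. KLF4 in trophectoderm-like cells was at 94.8%, 67.8% and 78.5% on those days, and in epiblast-like cells at 97.8%, 96.6% and 93.8%. SOX15 was at 57.5%, 65.7% and 72.5% against 95.4%, 94.4% and 96.3%, below and above the 83.2% of the mouse ESCs, and which class was nearer for KLF4 and SOX15 turned with the day or the ranking. In the monkey ESC cultures no factor stood above 52.8% (KLF5 in CMK9), and ZFP42 stood at 9.36 to 35.1%.

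**Figure D5:**
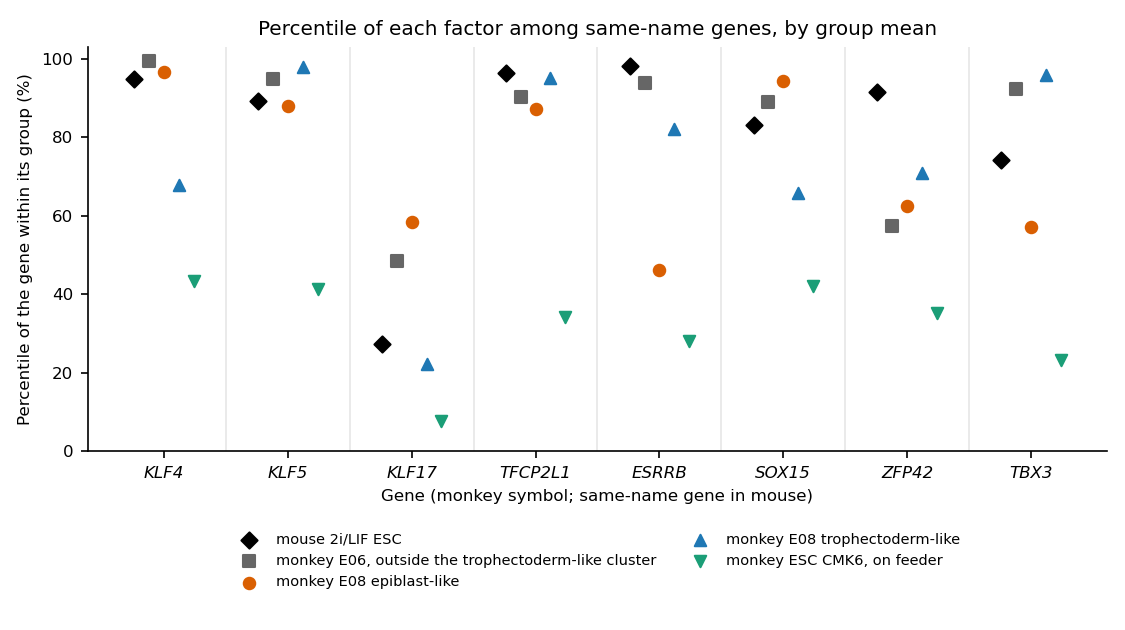
Percentile of each factor (x axis) by group mean among the 14254 same-name genes of its own group, for mouse 2i/LIF ESCs (diamonds), monkey E06 cells outside the trophectoderm-like cluster (squares), monkey E08 epiblast-like (circles) and trophectoderm-like cells (triangles) and CMK6 ESCs on feeder (inverted triangles). The circle for ESRRB lies at 46.05%, far under the diamond at 98.1%, while the square lies at 93.9% and the triangle at 82.1%.

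Over the 24 monkey units of at least 5 cells the factors did not vary as a single set. Pearson's r between unit means, a description over units that share days and embryos, was 0.90 for KLF5 with TFCP2L1 and with TBX3, 0.83 for KLF4 with TFCP2L1, 0.82 for TFCP2L1 with ESRRB, 0.81 for KLF5 with ESRRB, 0.80 for TBX3 with ESRRB and 0.77 for KLF17 with SOX15. It was 0.08 for KLF17 with TBX3, 0.16 for KLF17 with ESRRB and 0.22 for SOX15 with TBX3. ZFP42 had no r above 0.32 with any other factor. The 2 genes most like each factor among 10572 ranked were ZNF57 and DPPA3 for KLF4 (both 0.93), DPP4 (0.95) and C9H10orf90 (0.93) for KLF5, NLRP9 (0.94) and FAM240A (0.91) for KLF17, S100P (0.97) and NMI (0.96) for TFCP2L1, C9H10orf99 (0.97) and C1H1orf116 (0.94) for ESRRB, TIGD3 (0.91) and WDTC1 (0.90) for SOX15, RPS3 (0.74) and ZNF616 (0.66) for ZFP42, and ARHGAP18 (0.94) and FOLR1 (0.93) for TBX3.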

How the data were processed

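SC3-seq libraries of 492 single cells were used, 421 of monkey and 71 of mouse. The authors deposited RPM per gene and cell, on the builds macFas5 and mm10 per the file headers. The submitters' processing notes name cutadapt 1.3, TopHat 1.4.1 and Cufflinks 2.2.0 without their roles, and whether molecules were counted once is not given. A further 37 mouse columns had no matching sample and stayed out. Gene IDs in a RefSeq gene table gave symbols to 3296 of the 14758 monkey LOC genes (KLF4 among them), and 298 monkey genes held no values. Dividing deposited RPM by the worth of 1 read recovered reads: per cell, 99.6% or more of the values (over 0.01 RPM, below 500 steps) came within 0.1 of a whole number. No sequences are shown.

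Cells were clustered with scanpy 1.11.5 on log2(RPM + 1) without the 8 factors, using 2000 variable genes that exceeded 10 RPM in 5 or more cells (12 components and 10 neighbours in monkey, 8 and 8 in mouse, resolution 1). A cluster took a class name when over 50% of that class's detected markers, and 3 or more, were raised by 1 (log2) to a mean of 3, unless the top 10 genes favoured another class. No doublet caller was run and no cell was removed.

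The mean of log2(RPM + 1) over the cells of a class on a day (5 cells or more) was 1 unit. Genes reaching a unit mean of 2 in 3 units were tested with limma 3.58.1 (R 4.3.3, eBayes with trend, Benjamini-Hochberg adjustment over all of them, threshold 0.05), checked on simulated data. This scale understates changes of low genes. Groups of 1 unit have no test. Alternatives were a pseudocount of 10, no filter, log2 of mean RPM, quantile normalization, edgeR 4.0.16 on recovered reads, resolution 1.5, units of at least 10 cells, and each unit left out. The text names the 8 factors, the 2 genes most correlated with each, and the 4 called genes of each list with the largest change; where 5 or fewer were called in a direction, others were named after their values were seen. The factors, lists, class rules and settings were chosen with earlier results of these data known.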

Additional observations from a re-analysis of the deposited data

Results flagged for a closer look

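In groups of 4 to 10 values, 1 value stood far from the others by Dixon's ratio in 10 of 38 groups tested; chance flags about 1 in 20 groups, and groups of mostly 0 values with 1 cell above 0 are flagged by construction. Values are log2(RPM + 1). Among trophectoderm-like days E06 to E09, TFCP2L1 was lowest on E06, at 7.04 against 7.61 to 7.63 on the other days. Among the 10 mouse 2i/LIF ESCs 1 cell had Klf17 at 0.71 and the other 9 were at 0. In feeder-free CMK6 ESCs (9 cells) 1 cell each stood apart with KLF17 at 0.34, ZFP42 at 0.34, TFCP2L1 at 0.53 and SOX15 at 4.46. In CMK9 ESCs (8 cells) 1 cell each stood apart with KLF4 at 0.58, TBX3 at 0.60, SOX15 at 2.76 and TFCP2L1 at 3.16.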

How the results depend on the processing

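No called difference of a factor changed sign under the alternatives run. Of single values under alternatives that leave out no unit, 391 kept their reading. That means the same side of the threshold or fold or, for ranks and values within a title code, a value near the main one. Of the others 17 moved past the fold or away from the main value, 11 lost a call, 4 gained a call and 2 changed sign. The lost calls are given beside their results, and not all of the 17 are. Signs turned only in uncalled slopes of trophectoderm-like cells: to -0.22 for SOX15 and -0.10 for TBX3 with units of at least 10 cells. With 1 day left out these slopes ran from -0.22 to 0.92 for SOX15 and from -0.12 to 0.072 for TBX3. Numbers of genes called depended more on the setting. With units of at least 10 cells, which leaves fewer units, they were 1013 for trophectoderm-like against epiblast-like cells (3080 otherwise), 948 for hypoblast-like (3371), 788 for late against early days (3715), 12 for ESC cultures against late days (855) and 799 for the slope (42). ESC cultures against late days gave 113 with no filter, 431 with log2 of mean RPM, 437 with quantile normalization and 356 in edgeR; the share called higher was 82.5%, and 67.3%, 53.8% and 57.9% under the last 3. For late against early days that share was 35.6%, and 49.1%, 52.4% and 51.8%, and for trophectoderm-like cells 44.5%, and 54.5% in edgeR. The slope gave 1 gene with a pseudocount of 10, 1 with quantile normalization and 0 in edgeR, with log2 of mean RPM or with no filter (1257, 1298 and 2963 at an unadjusted p under 0.05). A pseudocount of 10 gave 145 genes past the fold (948 otherwise) for 2i/LIF ESCs against EpiLCs, 189 (1201) against E5.5 epiblast-like cells, 560 (1912) for visceral-endoderm-like cells, and 76 (420) and 146 (672) for E06 cells against trophectoderm-like and epiblast-like cells. With 1 unit left out the counts ran from 1443 (without E08; 1787 without E09) to 2463 for trophectoderm-like cells, from 1703 (without E08; 1854 without E09) to 2683 for hypoblast-like cells, from 2550 to 3651 for late against early days, from 1809 (without CMK6 on feeder; 1885 without E08) to 2226 for ESC against early days (3031 with all), from 146 (without CMK6 on feeder; 148 without CMK9, 288 without E14) to 656 for ESC against late days and from 1 to 799 for the slope. Resolution 1.5 changed no unit of these fits. ESC against early days could not be fitted with units of at least 10 cells, since 1 culture is left. No paired analysis was possible because the replicate numbers only name cells and pair none across groups; the block for the day in the class comparisons pairs units of the same day, not numbered replicates. Depth limits KLF17 and other factors near 0, with 166742 reads in the shallowest cell.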
